A study of Mus musculus with 30 samples.

Results

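The genes described here are 10 by which blood-derived monocytes and neutrophils are commonly told from the resident cells of the spinal cord: Ccr2, Ly6c2, Plac8, Chil3, S100a8, S100a9, S100a4, F13a1, Fn1 and Itga4. They were matched by name to the protein-coding genes of the deposited annotation, a rule that uses no measured value. All 10 were found, out of 30952 genes in the expression table, of which 17889 were protein-coding. Their level was read in every library, to see how much RNA of such cells each sorted population carried in each treatment group.

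The RNA came from microglia and astrocytes of the spinal cord of female C57BL/6 mice, isolated by cell sorting, and was amplified and sequenced. Experimental autoimmune encephalomyelitis (EAE), a T cell-driven demyelinating disease, was induced with a peptide of myelin oligodendrocyte glycoprotein (MOG) in mice that were 8 to 10 weeks old at immunization. From a clinical score of about 1 the mice received vehicle (20% Captisol) or the RIPK1 kinase inhibitor RIPK1inh-1 at 50 mg/kg by mouth, 2 times a day for 3 days. Each cell type had 15 libraries, 4 from naive, 6 from EAE-vehicle and 5 from EAE-RIPK1inh mice, and nothing in the labels describes an immunization or dosing of the naive mice. Microglia were gated as CD11b+CD45intCX3CR1+ and astrocytes as GLAST+CD11b-CD45-CD140a-, so that neither gate used Ly6C or Ly6G, the usual surface markers of inflammatory monocytes and neutrophils. In sorted bulk RNA, the number of cells of a type and the amount of RNA that each cell holds cannot be told apart.

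In EAE, monocytes and neutrophils leave the blood and enter the spinal cord. Ccr2 is the chemokine receptor by which inflammatory monocytes leave the bone marrow and reach inflamed tissue, and Ly6c2 encodes the Ly6C surface protein that marks them. Itga4 is the alpha-4 integrin, which binds VCAM-1 on the vessel wall, and Plac8 is a small protein abundant in monocytes and neutrophils. S100a8 and S100a9 encode the subunits of calprotectin, a granulocyte alarmin. Chil3 (Ym1) is a chitinase-like protein of neutrophils, monocytes and alternatively activated macrophages. S100a4 is a calcium-binding protein of migrating cells, Fn1 is fibronectin, and F13a1 is the catalytic subunit of coagulation factor XIII. Several of them are not private to myeloid cells: T cells also use Ccr2, S100a4 and Itga4, and mesenchymal cells make Fn1 and S100a4.

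Values are log2 FPKM (fragments counted per length of exon and per size of library), quantile-normalized by the authors over all 30 libraries, so that every library has the same distribution of values. Depth is unknown. Genes without signal in a library hold a low value that differs between libraries, up to 1.74 in microglia and 2.74 in astrocytes, and "without signal" below means a value in that tied stretch. Naive astrocyte 1 had no such stretch, so every value above 0 counts as signal there, and signal is not strictly comparable between libraries. Genes with signal numbered 8710 to 20398 in the microglia and 6728 to 22981 in the astrocyte libraries, and 4 libraries had under 10000. These were naive microglia 4, naive astrocyte 2, EAE-vehicle astrocyte 1 and EAE-RIPK1inh astrocyte 5. Microglia and astrocyte genes followed the sorting labels. The mean of 10 microglia genes was 7.18 to 10.62 in microglia and 0.87 to 3.45 in astrocyte libraries. That of 8 astrocyte genes was 6.80 to 8.62 in astrocyte and 0.95 to 1.97 in microglia libraries. Genes of other cells were abundant in astrocyte libraries as well. In EAE-vehicle astrocytes the oligodendrocyte genes had means of 6.38 to 9.91, against 6.80 to 8.04 for the astrocyte genes. In naive astrocytes the oligodendrocyte means were 6.19 to 7.39 and the erythrocyte means 3.88 to 8.67, against 7.73 to 8.62 for astrocyte genes. The deposited annotation marks S100a4, F13a1, Fn1 and Itga4 as confounded, a term that it does not define, as it does 50.8% of all genes. By the paper, each number of libraries is a number of mice, and the numbers are the same for both cell types. The microglia and astrocyte libraries may therefore share animals, but which libraries came from the same mouse is not stated, so the fits treat all libraries as independent.

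The 3 S100 genes lie near each other on chromosome 3, and their start regions are shown because S100a8 and S100a9 went together across microglia while S100a4 differed between the cell types in the opposite direction. Each window runs from 250 bases before the RefSeq start to 30 bases after it, on the gene's strand (GRCm38.p6). They are chr3:90668821-90669100 on the plus strand, chr3:90695692-90695971 on the minus strand and chr3:90603520-90603799 on the plus strand. For S100a8 the RefSeq start lies further into the gene than the start in the deposited annotation, chr3:90668978.
S100a8: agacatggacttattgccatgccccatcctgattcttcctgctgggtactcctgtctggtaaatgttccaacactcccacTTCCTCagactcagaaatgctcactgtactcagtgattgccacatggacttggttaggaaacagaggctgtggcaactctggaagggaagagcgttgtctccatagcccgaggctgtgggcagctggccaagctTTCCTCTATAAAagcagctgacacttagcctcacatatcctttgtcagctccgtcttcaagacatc
S100a9: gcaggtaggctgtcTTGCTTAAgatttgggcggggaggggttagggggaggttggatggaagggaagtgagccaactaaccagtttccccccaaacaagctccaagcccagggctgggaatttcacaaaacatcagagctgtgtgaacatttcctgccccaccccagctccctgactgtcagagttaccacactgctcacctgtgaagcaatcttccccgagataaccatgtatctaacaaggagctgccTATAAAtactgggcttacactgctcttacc
S100a4: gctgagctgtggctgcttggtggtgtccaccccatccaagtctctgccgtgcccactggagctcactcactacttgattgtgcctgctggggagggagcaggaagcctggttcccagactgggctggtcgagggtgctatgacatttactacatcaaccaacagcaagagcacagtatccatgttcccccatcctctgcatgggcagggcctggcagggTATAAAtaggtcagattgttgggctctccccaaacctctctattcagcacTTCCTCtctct
Capitals mark 3 short motifs searched on both strands: the TATA box letters TATAAA, the ETS-type letters GAGGAA and the C/EBP-type letters TTGCNNAA. The first stood in 4 of the 9 members with a window in the table (Chil3, S100a8, S100a9 and S100a4) and in 13.1% of all 32817 windows of this length. The second stood in 5 of the 9 members and 26.0% of all windows, and the third in 1 member, S100a9, and 10.4% of all windows. These are matches of letters, not binding sites, and in S100a8 a match of the second motif, on the other strand, adjoins the TATA match. Fn1 had no window in the table.

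**Figure D1:**
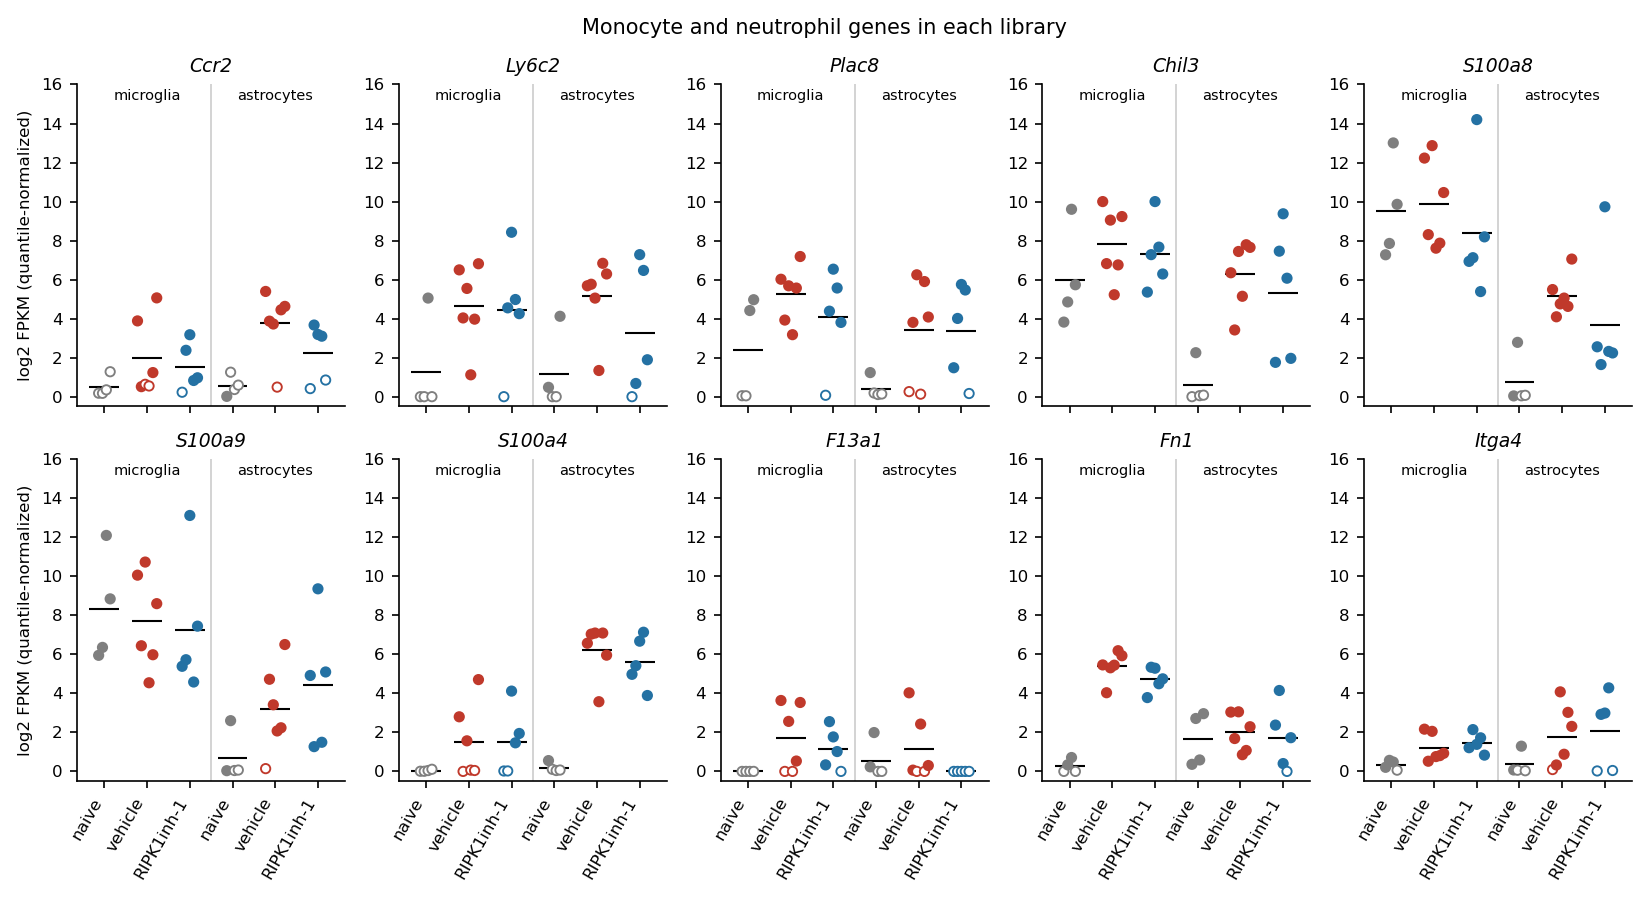
Log2 FPKM of the 10 genes (vertical axis, 1 panel each) in every library, by treatment in microglia (left of each panel) and astrocytes (right). Each point is 1 library, open points are libraries without signal for the gene, and lines are group means; S100a4 stands high in EAE astrocytes and Fn1 in EAE microglia, while S100a8 and S100a9 are high in naive microglia already.

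In microglia, Fn1 had the largest rise of the list from naive to EAE-vehicle mice. S100a8 and S100a9 were already abundant in naive mice and did not pass the test. By the cutoff of the study, a fold change over 1.5 at an unadjusted p under 0.05, 5 of the 10 genes were higher in EAE-vehicle than in naive microglia (Ly6c2, Plac8, F13a1, Fn1 and Itga4) and 0 were lower. Over all 28958 genes tested in the same limma fit, 6.13% were higher and 5.86% lower. The median log2 difference was 1.60 over the 10 genes and -0.02 over all genes. After Benjamini-Hochberg adjustment in limma Fn1 alone passed at 0.05, as did 3.92% of all genes, and the other 4 had unadjusted p from 0.041 to 0.048. Those 4 calls were not stable: without naive microglia 1 or 2, or EAE-vehicle microglia 1, 3 or 6, the count was 1, without naive microglia 4 it was 2, and without EAE-RIPK1inh microglia 1, 3 or 4, which share the estimate of the spread, it was 3.

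Fn1 (chr1:71585520-71653200, GRCm38), the matrix glycoprotein that monocytes and macrophages deposit, was at 0.00, 0.34, 0.71 and 0.00 in the 4 naive microglia libraries. In EAE-vehicle microglia it ran from 4.03 to 6.19 with a median of 5.45. Every EAE-vehicle value lay above every naive one, as for 2.97% of all genes that varied in this comparison. A further 2.36% did not overlap in the lower direction. The difference was 5.13 on the log2 scale (SE 0.40, limma adjusted p = 2.5e-06), and the exact two-sided permutation p was 0.00476, the smallest that 210 splits allow. EAE-RIPK1inh microglia held 3.78, 5.34, 5.29, 4.49 and 4.74, also above every naive library. In astrocytes Fn1 showed no such step. It was at 0.36, 2.71, 0.59 and 2.96 in naive libraries and from 0.86 to 3.05 with a median of 1.99 in EAE-vehicle libraries.

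F13a1 (chr13:36867178-37050244), which stabilises fibrin clots and is made by monocytes and macrophages, was listed at 0 in all 4 naive microglia libraries, so no fold is given. In EAE-vehicle microglia it was at 0.00 in libraries 2 and 4, 0.53 in library 5 and 2.56 to 3.63 in libraries 1, 3 and 6, and in EAE-RIPK1inh microglia it was at 0.33, 2.55, 1.77, 1.02 and 0.00. Signal was thus present in 4 of 6 and 4 of 5 EAE libraries. Among astrocytes, it was at 0.23, 1.99, 0.00 and 0.00 in naive libraries, reached 4.03 in EAE-vehicle library 1 and 2.43 in library 4, and was listed at 0 in all 5 EAE-RIPK1inh libraries. The astrocyte difference did not pass the test (limma unadjusted p = 0.443).

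Ccr2 (chr9:124101950-124113557), the receptor of inflammatory monocytes, had no signal in any of the 4 naive microglia libraries. In EAE-vehicle microglia it was at 3.88 and 5.06 in libraries 1 and 6 and at 0.51 to 1.24 in the other 4, and in EAE-RIPK1inh microglia at 0.23, 2.38, 3.18, 0.83 and 0.97. The difference did not pass the test in microglia (limma unadjusted p = 0.124). In astrocytes the picture was broader. Naive libraries held 0.02, 1.25, 0.37 and 0.59, and only the first of these, at 0.02, counted as having signal. EAE-vehicle libraries ran from 0.49 to 5.39 with a median of 4.16, 5 of the 6 being at 3.72 or more. Ccr2 was higher by 3.20 in EAE-vehicle than in naive astrocytes (SE 0.90, limma unadjusted p = 0.00278, adjusted p = 0.183; exact permutation p = 0.0286). EAE-RIPK1inh astrocytes split into libraries 2, 3 and 4, with 3.67, 3.19 and 3.10, and libraries 1 and 5, which had no signal.

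Ly6c2 (chr15:75108158-75111970) gave a like division among libraries. Naive microglia held 0.00, 0.00, 5.05 and 0.00, so that 1 of 4 naive libraries had a level within the range of the EAE libraries. EAE-vehicle microglia ran from 1.12 to 6.81 with a median of 4.79, and EAE-RIPK1inh microglia held 0.00, 4.55, 8.43, 4.98 and 4.25. The EAE-vehicle difference in microglia was 3.40 (SE 1.52, limma unadjusted p = 0.0413, adjusted p = 0.333; exact permutation p = 0.0524). Naive astrocytes held 0.48, 0.00, 0.00 and 4.12, and EAE-vehicle astrocytes ran from 1.34 to 6.83 with a median of 5.72, a difference of 4.01 (limma unadjusted p = 0.0171, adjusted p = 0.469). The low EAE-vehicle astrocyte library, number 4, was the one without Ccr2 signal. In EAE-RIPK1inh astrocytes Ly6c2 was at 0.00, 0.68, 7.28, 6.47 and 1.89.

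Plac8 and Itga4, which monocytes share with other leukocytes, were called in microglia by small margins. Plac8 (chr5:100553725-100572245) had no signal in naive microglia 1 and 2 but stood at 4.42 and 4.97 in naive microglia 3 and 4, against 3.18 to 7.18 with a median of 5.62 in EAE-vehicle microglia. Its log2 difference was 2.89 (SE 1.30, limma adjusted p = 0.342). In astrocytes Plac8 differed by 2.99 (SE 1.35, limma adjusted p = 0.673), and 4 of the 6 EAE-vehicle libraries, at 3.81 to 6.25, had signal. That call was lost in 8 of the 15 fits that left out 1 astrocyte library, those without any 1 of the 4 naive libraries or EAE-vehicle 2, 3, 5 or 6, and the exact permutation p was 0.1. Itga4 (chr2:79255426-79333123) was low throughout microglia, at 0.06 to 0.57 in naive and 0.52 to 2.16 in EAE-vehicle libraries, a difference of 0.88 (SE 0.40, limma adjusted p = 0.355). EAE-RIPK1inh microglia had 0.83 to 2.14, above every naive library. In astrocytes Itga4 reached 4.08 in EAE-vehicle library 3 and 4.28 in EAE-RIPK1inh library 4, and the EAE-vehicle difference of 1.42 did not pass the test (SE 0.97, limma unadjusted p = 0.162).

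S100a8, S100a9 and Chil3 were the most abundant of the 10 in microglia, in naive mice as in EAE. S100a8 (chr3:90668978-90670035) stood at 7.27, 7.85, 13.01 and 9.86 in naive microglia and from 7.61 to 12.87 with a median of 9.38 in EAE-vehicle microglia. The groups overlapped almost wholly, and the difference was 0.39 (SE 1.66, limma unadjusted p = 0.816). S100a9 (chr3:90692632-90695721) stood at 5.95, 6.36, 12.10 and 8.84 in naive and from 4.54 to 10.73 with a median of 7.52 in EAE-vehicle microglia, a difference of -0.59 (SE 1.73, limma unadjusted p = 0.74). The S100a8 difference ran from -0.35 without naive microglia 1 to 1.56 without naive microglia 3 and was also negative without naive 2 or EAE-vehicle 1 or 3. That of S100a9 ran from -1.37 to 0.68 and was positive without naive 3 or EAE-vehicle 4. Chil3 (chr3:106147554-106167564) was at 3.82, 4.85, 9.60 and 5.74 in naive and 5.23 to 10.00 with a median of 7.93 in EAE-vehicle microglia (difference 1.84, SE 1.20, limma unadjusted p = 0.146). The Chil3 difference was 1.11 without naive library 1, and 3.04 without naive library 3, when it passed the cutoff (limma unadjusted p = 0.0152).

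The calprotectin genes spread widely within every treatment group of microglia. S100a8 was highest in 4 of the 15 microglia libraries, naive 3 (13.01), EAE-vehicle 1 (12.23), EAE-vehicle 3 (12.87) and EAE-RIPK1inh 3 (14.20). The same libraries had the highest means of the 16 other neutrophil genes, which were 5.30, 5.22, 5.66 and 6.44, against 1.07 to 3.77 in the other 11, and 3 of the 4 bear the number 3. S100a8 was above S100a9 in all 15 microglia libraries, by 0.75 to 3.07. Over the 11 EAE microglia libraries their levels correlated with Pearson's r = 0.971 (permutation p = 1e-05, the smallest that 100000 permutations give) and Spearman's rho = 0.936 (permutation p = 6e-05). Without the 2 libraries farthest from the median of S100a8, r was 0.936, and within EAE-vehicle and EAE-RIPK1inh it was 0.983 and 0.995. The 4 relations computed had adjusted p of 4e-05 to 0.057 for r. Ccr2 and Ly6c2, in the same libraries, had r = 0.713 (permutation p = 0.0146), rho = 0.764 (permutation p = 0.00859) and r = 0.728 without 2 libraries.

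**Figure D2:**
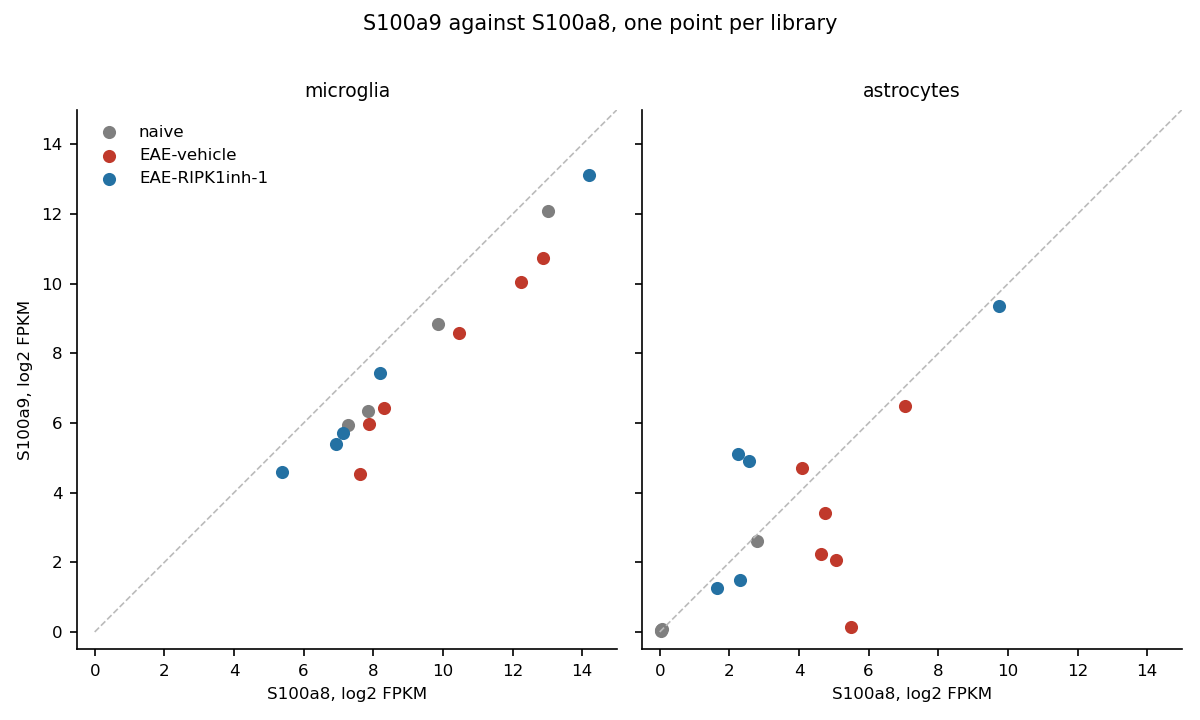
Log2 FPKM of S100a9 (vertical axis) against S100a8 (horizontal axis) in microglia (left) and astrocytes (right), 1 point per library, coloured by treatment; the dashed line marks equal levels. All 15 microglia libraries lie under the line and along it, and the treatments are mixed, while the astrocyte libraries scatter on both sides.

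In astrocytes, 6 of the 10 genes were higher in EAE-vehicle than in naive libraries (Ccr2, Ly6c2, Plac8, Chil3, S100a8 and S100a4) and 0 were lower. Over all 30718 genes tested 2.69% were higher and 4.01% lower. The median log2 difference was 3.09 over the 10 genes and 0.03 over all genes. With each library centred, the all-gene median was 0.14 and 3.46% of genes were higher and 3.29% lower, and the count of 6 did not move beyond 1.5 times under any alternative tried. S100a4 alone passed the adjustment in limma, as did 0.579% of all genes. For 3 of the 10 genes every EAE-vehicle value lay above every naive one, as for 1.03% of all genes that varied. A further 1.29% did not overlap in the lower direction.

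S100a4 (chr3:90603771-90606045), found in migrating leukocytes and in mesenchymal cells, had the largest difference of the list. It was at 0.56, 0.11, 0.05 and 0.07 in naive astrocytes, with signal in the first alone, and from 3.57 to 7.09 with a median of 6.80 in EAE-vehicle astrocytes. The difference was 6.03 (SE 0.74, limma adjusted p = 0.000668; exact permutation p = 0.00476). EAE-RIPK1inh astrocytes held 4.98, 5.42, 6.67, 7.13 and 3.89, so that all 11 EAE libraries lay above all 4 naive ones. The EAE astrocyte libraries without Ccr2 signal, EAE-vehicle 4 and EAE-RIPK1inh 1 and 5, held S100a4 at 3.57, 4.98 and 3.89. Which cells the S100a4 RNA came from was not tested. Microglia differed from this. S100a4 had no signal in any naive microglia library, and in EAE-vehicle microglia it had none in libraries 2, 4 and 5 and stood at 2.80, 1.57 and 4.71 in libraries 1, 3 and 6.

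Chil3 and S100a8 were also without overlap between EAE-vehicle and naive astrocytes. Chil3 was at 0.00, 2.25, 0.05 and 0.08 in naive astrocytes, with signal in library 2 alone, and from 3.42 to 7.79 with a median of 6.90 in EAE-vehicle astrocytes. The difference was 5.70 (SE 1.37, limma unadjusted p = 0.000811, adjusted p = 0.0897). S100a8 was at 0.04, 2.78, 0.05 and 0.07 in naive and from 4.09 to 7.05 with a median of 4.90 in EAE-vehicle astrocytes, a difference of 4.44 (SE 1.30, limma unadjusted p = 0.00376, adjusted p = 0.217). Its partner S100a9 was at 0.04, 2.60, 0.05 and 0.07 in naive and from 0.14 to 6.50 in EAE-vehicle astrocytes, and its difference of 2.49 did not pass the test (SE 1.47, limma unadjusted p = 0.11). The calprotectin genes over the 11 EAE astrocyte libraries had r = 0.588 (permutation p = 0.057), rho = 0.309 (permutation p = 0.356), and r = 0.0246 without 2 libraries. Within EAE-vehicle and EAE-RIPK1inh it was 0.364 and 0.866. Ccr2 and Ly6c2 had r = 0.723 (permutation p = 0.0151) and rho = 0.482 (permutation p = 0.137) there, and r = 0.465 without 2 libraries. Within EAE-vehicle and EAE-RIPK1inh astrocytes it was 0.926 and 0.531.

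**Figure D3:**
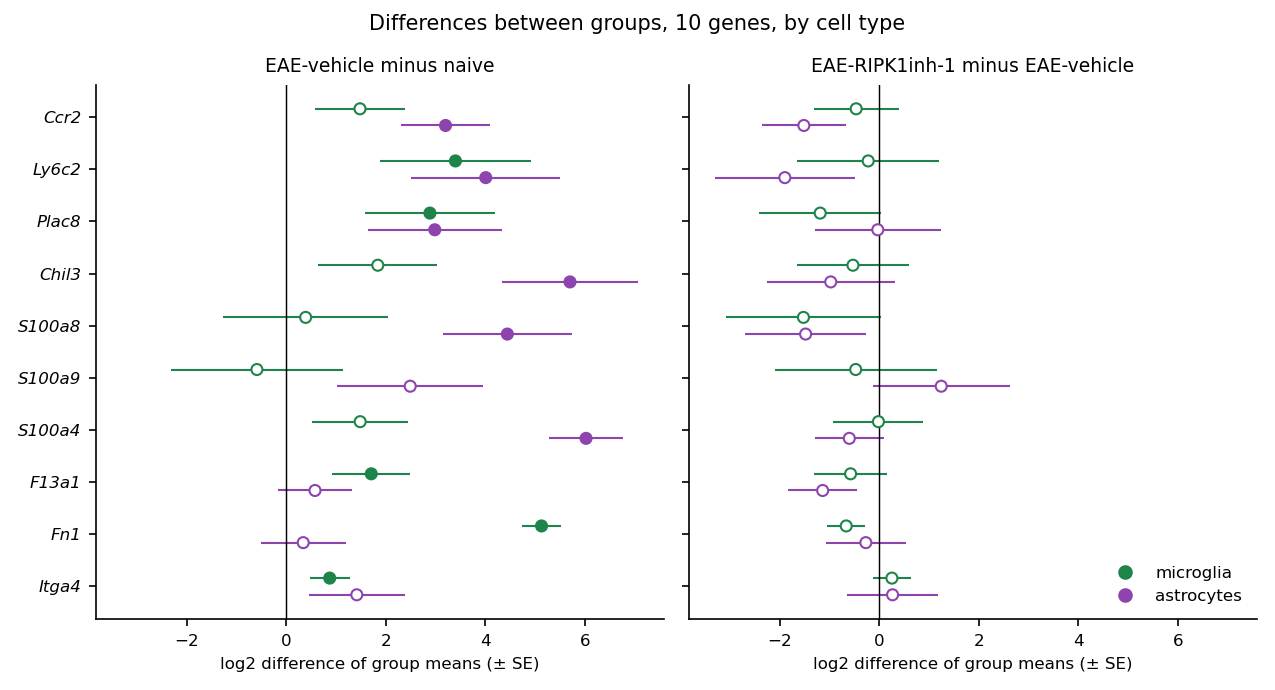
Log2 difference of group means with its SE (horizontal axis) for the 10 genes in microglia (green) and astrocytes (purple), EAE-vehicle minus naive (left) and EAE-RIPK1inh minus EAE-vehicle (right). Filled points passed the cutoff, 5 in microglia and 6 in astrocytes on the left and 0 on the right; groups without signal (Ccr2, S100a4 and F13a1 in naive microglia, F13a1 in EAE-RIPK1inh astrocytes) give no fold, and their points show differences from background values only.

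T cell genes were higher as well in EAE-vehicle than in naive astrocyte libraries. Of 9 such genes, 6 were higher by the same cutoff and 0 lower, with a median log2 difference of 3.45. After adjustment in limma, 0 of the 9 passed at 0.05. Cd3g and Cd3e, chains of the T cell receptor complex, differed by 5.11 and 3.81, and Lck, its kinase, had no signal in naive astrocytes and signal in 6 of 6 EAE-vehicle libraries. The mean of the 9 genes was 0.60 to 1.29 in naive, 1.44 to 5.82 in EAE-vehicle and 1.27 to 5.56 in EAE-RIPK1inh astrocytes. Among the 11 EAE libraries it was lowest in EAE-RIPK1inh astrocyte 1 (1.27), EAE-vehicle astrocyte 4 (1.44) and EAE-RIPK1inh astrocyte 5 (2.04). Those were the 3 EAE astrocyte libraries without Ccr2 signal. EAE-vehicle astrocyte 1, with the highest Ccr2 (5.39), had a T cell mean of 2.68 and signal in 5 of the 9 genes. Genes without signal stood at up to 2.74 in that library. In microglia the same mean was 0.11 to 2.26, with 0 of 9 genes called in EAE. Ptprc (CD45), which the astrocyte gate excluded at the surface, was at 1.23 ± 1.42 (SD, n = 4) in naive and 4.77 ± 1.19 (SD, n = 6) in EAE-vehicle astrocytes (difference 3.53, SE 0.99, limma adjusted p = 0.18). Itgam (CD11b), with signal in 0 of 4 naive and 5 of 6 EAE-vehicle libraries, and Cx3cr1, by 1.64, were also called higher there, and Slc1a3 (GLAST), the positive marker of the gate, was lower by 1.94 (SE 0.38, limma adjusted p = 0.032). Pdgfra (CD140a) was at 0.22 ± 0.22 (SD, n = 4) and 1.32 ± 1.18 (SD, n = 6). The part of other cells in the 6 calls was not tested.

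Further monocyte genes moved less evenly than the 10. In EAE-vehicle astrocytes 3 of 16 were higher: Lyz2, the lysozyme of myeloid cells, by 5.44 (SE 1.10, limma adjusted p = 0.039), Itgal, the alpha chain of the integrin LFA-1, by 3.34, and Cd44, a receptor for hyaluronan, by 2.41. In EAE-vehicle microglia 4 of 16 were higher, among them Itgal by 4.72 (SE 0.50, limma adjusted p = 5.4e-05), Ms4a4c by 4.43 (SE 0.41, limma adjusted p = 1.5e-05) and Emilin2, an extracellular matrix protein that had no signal in naive microglia. The median log2 difference of the 16 was 1.42 in microglia and 0.91 in astrocytes. Their mean level was 2.61 to 4.49 in EAE-vehicle against 1.52 to 3.18 in naive microglia, and 1.69 to 3.16 against 0.78 to 1.34 in astrocytes.

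Of the neutrophil genes other than the members, few passed the cutoff. In EAE-vehicle microglia 1 of 16, Il1r2, a decoy receptor for interleukin-1, was higher by 2.92 (SE 1.07, limma adjusted p = 0.19) and 1, the G-CSF receptor Csf3r, was lower by 1.18 (SE 0.44, limma adjusted p = 0.21). Csf3r is also expressed by microglia. In astrocytes 0 of 15 tested passed the cutoff in limma, although 14 of the 15 had a higher value in EAE-vehicle libraries. The median log2 difference of the list was 0.73 in microglia and 0.53 in astrocytes. The mean over the neutrophil list was 1.22 to 5.30 in naive and 1.66 to 5.66 in EAE-vehicle microglia, and 0.018 to 0.53 in naive and 0.20 to 1.12 in EAE-vehicle astrocytes. Ly6g, the defining surface marker of mouse neutrophils, was named after its values were seen: it was listed at 0 in all 15 astrocyte libraries and had signal in 2 of 4 naive, 3 of 6 EAE-vehicle and 2 of 5 EAE-RIPK1inh microglia libraries.

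Microglia genes gave the other side of the microglia comparison. All 10 were lower in EAE-vehicle than in naive microglia, with a median of -2.51, and Fcrls, P2ry12 and Gpr34 fell by 5.72, 4.16 and 4.14 on the log2 scale. In astrocyte libraries 1 of the same 10 was called, Cx3cr1, and their mean was 0.87 to 2.40 in naive, 1.08 to 3.45 in EAE-vehicle and 1.56 to 2.66 in EAE-RIPK1inh libraries. Oligodendrocyte genes were abundant in astrocyte libraries, with means from 6.19 to 9.91, and 4 of 7 were higher in EAE-vehicle astrocytes, among them Mag, Cldn11 and Mobp, the last by 2.34 (SE 0.38, limma adjusted p = 0.0085). Of the remaining marker lists, no gene was called higher in EAE-vehicle microglia or astrocytes among 4 B cell, 5 dendritic cell, 5 border macrophage, 6 endothelial, 4 fibroblast and pericyte and 5 erythrocyte genes tested, and 1 B cell and 1 endothelial gene in microglia and 1 dendritic and 2 fibroblast genes in astrocytes were lower. Erythrocyte genes were abundant in naive astrocytes, where their mean was 3.88 to 8.67. It was 0.079 to 7.40 in EAE-vehicle and 0.37 to 6.80 in EAE-RIPK1inh astrocytes. Naive, EAE-vehicle and EAE-RIPK1inh microglia held 0.14 to 4.48, 0.13 to 2.31 and 0.60 to 4.51. All 5 erythrocyte genes had lower values in both EAE astrocyte groups, with 0 called. Their median change from naive was -2.25 with vehicle and -3.50 with RIPK1inh-1. Of 8 astrocyte genes 2 were higher in EAE-vehicle microglia, and 1 was higher and 4 lower in EAE-vehicle astrocytes. The part of carried-over RNA in these differences was not tested.

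**Figure D4:**
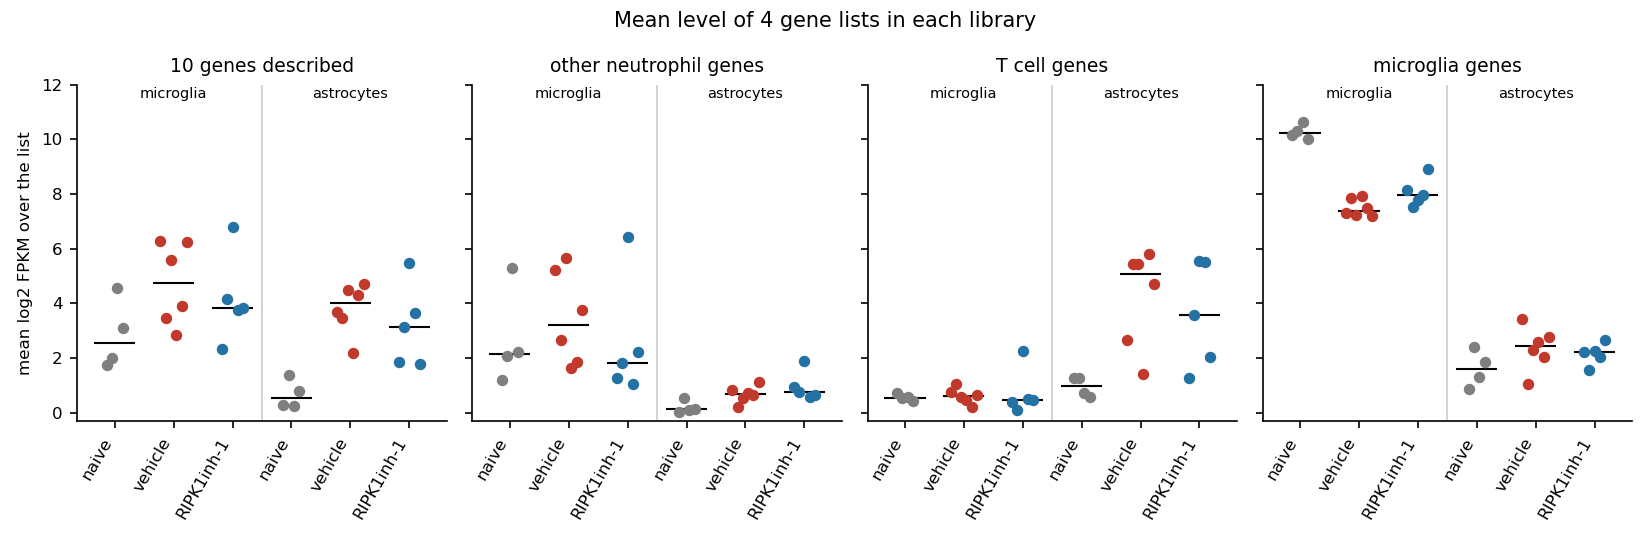
Mean log2 FPKM over 4 gene lists (vertical axis) in each library, by treatment in microglia (left of each panel) and astrocytes (right); points are libraries and lines are group medians. T cell genes reach 5.82 in EAE astrocytes and at most 2.26 in microglia, whereas other neutrophil genes reach 6.44 in microglia and stay at or under 1.90 in astrocytes.

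Of the ligands and partners of the members, 4 of 8 tested were higher in EAE-vehicle microglia and all 4 passed the adjustment. Ccl7 and Ccl12, ligands of Ccr2, were higher by 5.90 (SE 0.87, limma adjusted p = 0.00096) and 3.42 (SE 0.69, limma adjusted p = 0.01). Vcam1, the ligand of the alpha-4 integrins, was higher by 4.17 in microglia (SE 0.58, limma adjusted p = 0.00061). In astrocytes the direction for Vcam1 was the opposite one: it was at 6.71 ± 0.56 (SD, n = 4) in naive and 2.97 ± 2.04 (SD, n = 6) in EAE-vehicle libraries, lower by 3.74 (SE 1.17, limma adjusted p = 0.28). Itgb7, the beta chain that pairs with Itga4 on lymphocytes, and Ccl7 had no signal in naive astrocytes and were called higher in EAE-vehicle astrocytes, with signal in 4 and 5 of 6 libraries.

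With RIPK1inh-1, none of the 10 genes passed the cutoff against vehicle in either cell type. In limma 0 were called between EAE-RIPK1inh and EAE-vehicle microglia, where 1.76% of all genes were, and 0 between the astrocyte groups, where 3.02% were. By the unadjusted limma p alone 0 of 10 were under 0.05 as well, against 2.87% and 3.25% of all genes. Exact permutation p over 462 splits ran from 0.149 to 0.961 in microglia and from 0.149 to 0.987 in astrocytes. Values were lower with the inhibitor for 9 of 10 in microglia, as for 60.6% of all genes (median -0.50 over the list, -0.02 over all genes), and for 8 of 10 in astrocytes, as for 56.7% of all genes (median -0.79, all genes -0.03). A p that misses the cutoff at these spreads does not show equal levels, since the SE of single genes ran from 0.38 to 1.62. Other marker lists differed alongside. In microglia 14 of 16 other neutrophil genes had lower values, with 0 called in limma, and 9 of 10 microglia genes had higher values, of which Cx3cr1, the fractalkine receptor, by 1.52, Siglech by 1.17 and Olfml3 by 0.78 passed the cutoff. In astrocytes 9 of 9 T cell genes had lower values, with a median of -0.51 and 0 called in limma. The part of these cells in the members' differences was not tested.

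The smallest p were those of Fn1 in microglia and Ccr2 in astrocytes. Fn1 was lower by 0.66 with the inhibitor (SE 0.38, limma unadjusted p = 0.0994, adjusted p = 0.93), and 5 of 5 treated microglia libraries lay under the EAE-vehicle mean of 5.39. Without EAE-vehicle microglia 2 the Fn1 difference was -0.94 and passed the cutoff (limma unadjusted p = 0.0103), and it was -1.09 with libraries weighted by quality (limma unadjusted p = 0.000825). It was -0.43 without EAE-RIPK1inh microglia 1. In astrocytes Ccr2 was lower by 1.51 (SE 0.84, limma unadjusted p = 0.0918, adjusted p = 0.84), with 5 of 5 treated libraries under the EAE-vehicle mean of 3.76. Leaving out EAE-vehicle astrocyte 4, which had no Ccr2 signal, the Ccr2 difference was -2.17 and passed the cutoff (limma unadjusted p = 0.00659), and it was -1.06 without EAE-RIPK1inh astrocyte 1.

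One treated library in each cell type, number 3, had the highest calprotectin values of its group. S100a8 stood at 6.93, 7.12, 14.20, 5.39 and 8.19 in EAE-RIPK1inh microglia and at 2.56, 1.65, 9.73, 2.32 and 2.24 in EAE-RIPK1inh astrocytes. Library 3 was the highest of all 15 in either cell type. S100a9 was also highest there, at 13.12 in microglia and 9.36 in astrocytes of that number. In the other EAE-RIPK1inh astrocytes S100a9 was at 4.92 and 5.10 in libraries 1 and 5 and at 1.27 and 1.49 in libraries 2 and 4. With all libraries, the S100a8 difference under RIPK1inh-1 was -1.52 in microglia (SE 1.55) and -1.48 in astrocytes (SE 1.22). That of S100a9 was -0.47 in microglia (SE 1.62) and had the opposite sign in astrocytes, 1.24 (SE 1.38). Without library 3 the S100a8 difference was -2.98 in microglia (limma unadjusted p = 0.0347, adjusted p = 0.966) and -2.99 in astrocytes (limma unadjusted p = 0.000623, adjusted p = 0.597), and that of Ly6c2 in astrocytes was then -2.90 (limma unadjusted p = 0.0489). Without library 3 S100a9 differed by -1.94 in microglia and 0.012 in astrocytes. Other libraries moved these values the other way: S100a8 was at -0.78 without EAE-RIPK1inh microglia 4 and -0.97 without EAE-RIPK1inh astrocyte 2, and Ly6c2 at -1.08 without EAE-RIPK1inh astrocyte 1. The neutrophil list was highest in the same libraries, 6.44 in microglia and 1.90 in astrocytes, and neither the labels nor the paper state that libraries of 1 number come from 1 mouse.

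Against naive mice, fewer of the 10 genes were called in the treated than in the vehicle groups, and S100a9 in astrocytes was called in the treated group alone. Whether the groups differ there was tested by the comparison with vehicle above. EAE-RIPK1inh and EAE-vehicle share the naive libraries, so the comparisons are given side by side only. In microglia 2 of 10 were higher (5.35% of all genes were), Fn1 by 4.47 (SE 0.42, limma adjusted p = 2.06e-05) and Itga4 by 1.13 (SE 0.42, limma adjusted p = 0.242). The count was 4 without naive microglia 3 or without EAE-RIPK1inh microglia 1. In astrocytes 4 of 10 were higher (1.98% of all genes were): Chil3 by 4.73, S100a8 by 2.96, S100a9 by 3.74 and S100a4 by 5.42, the last with a limma adjusted p of 0.00478. That count was 2 without naive astrocyte 1, 3 or 4 or EAE-RIPK1inh astrocyte 3, and 7 without EAE-RIPK1inh astrocyte 1.

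Between the cell types, S100a8 stood out on the microglia side and S100a4 on the astrocyte side. In naive mice 3 of 10 genes were higher in microglia, where 10% of all genes were: S100a8 by 8.76 (SE 1.67, limma adjusted p = 0.000343), S100a9 by 7.62 (SE 1.80, limma adjusted p = 0.00359) and Chil3 by 5.41 (SE 1.45, limma adjusted p = 0.0109). In EAE-vehicle mice 5 of 10 differed, against 22.4% of all genes. S100a8 was higher in microglia by 4.71, S100a9 by 4.54 and Fn1 by 3.39 (SE 0.60, limma adjusted p = 0.000114), while S100a4 was lower by 4.69 (SE 0.78, limma adjusted p = 5.38e-05) and Ccr2 by 1.78 (SE 0.81, limma adjusted p = 0.17). Under RIPK1inh-1, 3 of 10 differed (21.7% of all genes): S100a8 by 4.67 and Fn1 by 3.00 toward microglia, and S100a4 by 4.10 toward astrocytes (SE 0.85, limma adjusted p = 0.000948). Without EAE-RIPK1inh astrocyte 3 that count was 5.

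By an interaction term over all 30 libraries, the EAE-vehicle minus naive difference was unequal between the cell types for 3 genes. Of all genes 8.68% passed that cutoff. Fn1 differed more in microglia, by 4.79 (SE 0.94, limma adjusted p = 0.00774). Chil3 differed more in astrocytes (interaction -3.86, SE 1.87, limma adjusted p = 0.547), and so did S100a4 (interaction -4.54, SE 1.23, limma adjusted p = 0.0712), whose naive microglia libraries had no signal. For the effect of RIPK1inh-1, 0 of 10 interactions passed in limma by the cutoff or by the unadjusted p alone, against 3.15% and 3.44% of all genes. The SE of those interactions ran from 0.88 to 2.18. With libraries of the same treatment and number taken as 1 mouse, an alternative chosen after seeing the data for these interactions, the counts were 2 for EAE and 0 for RIPK1inh-1 in limma.

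FPKM divides by the annotated exon length, which was 522 for S100a9 and 13978 for Itga4. How far that divisor holds for amplified RNA was not tested, so the order between genes is approximate. The order of levels in EAE-vehicle microglia was led by S100a8 (9.89 ± 2.30, SD, n = 6). Then came Chil3 (7.85 ± 1.85) and S100a9 (7.72 ± 2.45), which differed by less than their spread. Fn1 (5.39 ± 0.75), Plac8 (5.26 ± 1.46) and Ly6c2 (4.67 ± 2.11) followed, again within their spread of each other, and Ccr2, F13a1, S100a4 and Itga4 had means of 1.21 to 1.98. In EAE-vehicle astrocytes Chil3 (6.30 ± 1.73, SD, n = 6) and S100a4 (6.22 ± 1.37) led, ahead of S100a8 (5.18 ± 1.03) and Ly6c2 (5.16 ± 1.97). Ccr2 (3.76 ± 1.71), Plac8 (3.40 ± 2.67) and S100a9 (3.18 ± 2.23) came next, and Fn1, Itga4 and F13a1 had means of 1.14 to 2.00.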

How the data were processed

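RNA of microglia and astrocytes sorted from mouse spinal cord was measured in 30 libraries, grouped by the labels' cell type and treatment. Reads were aligned and quantified with OmicSoft Array Studio, per the paper's methods. The authors deposited log2 FPKM values, which are quantile-normalized, as the equal sorted values of all libraries show. The file name states a filter at an FPKM of 1. The aligner, annotation release and offset are not given in the sources used here.

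The 10 genes were joined to the table by gene ID, and their positions equalled those of GENCODE M21. The genes and the other marker lists (monocyte, neutrophil, T cell, B cell, dendritic cell, border macrophage, endothelial, fibroblast and pericyte, oligodendrocyte, erythrocyte, microglia, astrocyte, ligands and partners) were chosen with earlier results of these data known. From each list, at most the 3 called genes of largest difference per comparison were named, with the 5 gate genes. Ties of genes without signal were recognised by their rise with file order.

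Groups were compared with limma 3.58.1 in R 4.3.3 (lmFit, eBayes with a variance trend). The 3 groups of a cell type shared 1 fit, and comparisons between cell types used all 30 libraries. Adjustment was by Benjamini-Hochberg over all genes tested. Single genes were tested by exact two-sided permutation, and correlations by 100000 permutations (Python 3.11.15, scipy 1.17.1). The limma scripts were tested on simulated data. The authors' test was paired, and no label pairs mice of different groups, so none of these fits is paired. Deviations of same-numbered libraries from their group means correlated by -0.17 to 0.24 within a cell type, over 0.1 in 4 of 26 pairs, all of them microglia numbers 1 and 3, so the numbers were not taken as pairs.

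Alternatives were a filter at a mean log2 of 1, an added offset of 1, genes without signal set to 0, centring on the median of genes with a mean log2 of at least 1, library weights, no variance trend, fits of 2 groups, a replicate block, leaving out each library, and, chosen after seeing the data, leaving out the 4 libraries with under 10000 genes with signal. No other experiment of the study was used.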

Additional observations from a re-analysis of the deposited data

Results flagged for a closer look

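In 14 of 60 groups of 4 to 6 libraries tested over the 10 genes, 1 library stood far from the others by Dixon's test. For normally distributed values chance alone gives this in about 1 of 20 groups. Groups with most values at a library's floor are not of that kind, so that rate cannot be used to judge the 14. Naive astrocytes account for 8 of the 14, in groups where 1 or 2 of the 4 libraries had signal. Naive astrocyte 2, which had under 10000 genes with signal, stood apart for Chil3 (2.25), S100a8 (2.78), S100a9 (2.60) and F13a1 (1.99). Naive astrocyte 1 stood apart for Plac8 (1.23) and S100a4 (0.56), naive astrocyte 3 for Itga4 (1.29) and naive astrocyte 4 for Ly6c2 (4.12). Naive astrocyte 4 also had a mean of 3.97 over the 6 endothelial genes, against 0.23 to 0.59 in the other naive astrocyte libraries. Which cells its Ly6c2 came from was not tested.

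EAE-vehicle astrocyte 4 was low for Ccr2 (0.49, the others at 3.72 to 5.39), Ly6c2 (1.34, the others at 5.05 to 6.83) and S100a4 (3.57, the others at 5.96 to 7.09). Its T cell genes were also the lowest of that group, with a mean of 1.44. EAE-RIPK1inh astrocyte 3 was high for S100a8, at 9.73 against 1.65 to 2.56. Naive microglia 3 was high for Ly6c2, at 5.05 where the other 3 were at 0. Naive microglia 4 stood apart for Ccr2 (1.28), a value without signal, and had under 10000 genes with signal.

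The EAE-vehicle minus naive difference of Fn1 was unequal between microglia and astrocytes, by 4.79 on the log2 scale (limma interaction term, adjusted p = 0.00774). Fn1 was higher in 6 of 6 EAE-vehicle microglia libraries than in any naive one, while the astrocyte groups overlapped.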

How the results depend on the processing

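The count of genes higher in EAE-vehicle than in naive microglia, 5, was 2 with the added offset, with library weights, with the replicate block and without the 4 libraries with under 10000 genes with signal, 3 without a variance trend and in a fit of 2 groups, and 1 to 5 with single libraries left out. Fn1 is the gene that stayed called in each of these. With library weights the counts were 1 for RIPK1inh-1 against vehicle in microglia, 1 for RIPK1inh-1 against naive microglia, 7 for RIPK1inh-1 against naive astrocytes and 1 for the EAE interaction. Leaving out single libraries gave 5 to 6 for EAE in astrocytes, 0 to 1 and 0 to 2 for RIPK1inh-1 against vehicle in microglia and astrocytes, 2 to 4 and 2 to 7 against naive mice, 3 to 4, 4 to 5 and 3 to 5 between cell types in naive, EAE-vehicle and EAE-RIPK1inh mice, 2 to 4 for the EAE interaction and 0 for the RIPK1inh-1 interaction.

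Differences with a changed sign were all uncalled. Plac8 under RIPK1inh-1 in astrocytes was 0.0026 with genes without signal set to 0, 0.33 with weights, 0.11 with the replicate block and 0.14 without the 4 libraries. With weights, Fn1 was -0.18 for EAE in astrocytes and S100a4 0.22 for RIPK1inh-1 in astrocytes. With the replicate block, Ccr2, Ly6c2 and S100a4 under RIPK1inh-1 in microglia were 0.15, 0.21 and 0.62. No label states whether the replicate numbers pair libraries. A block by number and treatment across the 2 cell types changed no count between cell types and gave 2 in place of 3 for the EAE interaction. With single libraries left out, the EAE differences ran from -0.35 to 1.56 (S100a8) and -1.37 to 0.68 (S100a9) in microglia and -0.087 to 0.78 (Fn1) in astrocytes. Those of RIPK1inh-1 ran from -0.88 to 0.15 (Ccr2), -1.22 to 0.89 (Ly6c2), -1.94 to 0.19 (S100a9) and -0.67 to 0.62 (S100a4) in microglia, and from -0.68 to 0.77 (Plac8), -0.87 to 0.16 (Fn1) and -0.29 to 0.77 (Itga4) in astrocytes. The cause was not tested.

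Depth is unknown and values near the floor of a library carry no counting error, so low levels of Ccr2, F13a1 and Itga4 are the least certain. Centring left the calls of members within 1.5 times but moved the median of all genes between cell types in EAE-vehicle mice from -0.05 to -0.36.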
